A study of Mus musculus with 59 samples.

Results

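The prefrontal cortex of mice heterozygous for Naa15 was compared after early-life lithium and after vehicle, using 10 lithium and 9 vehicle libraries of the 59 in the series. Every library with a heterozygous (HT) genotype label and a lithium or vehicle label was taken. The lithium arm held 5 females and 5 males, and the vehicle arm 5 females and 4 males. All mice were C57BL/6J pups that took up the drug or vehicle through maternal milk (postnatal days 3 to 24), and RNA-seq of polyadenylated RNA was done on tissue of day 25. The dose, the litters and the way the Naa15 allele was made are not given in the sources used here, so p-values measure the spread between these samples, which may share litters. HT females given fluoxetine (5 libraries) and wild-type (WT) mice given lithium or vehicle (10 libraries each), treated over the same days, are brought in only for the comparisons at the end and as side values.

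Lithium is a mood stabiliser that inhibits the kinases GSK3A and GSK3B, which mark beta-catenin for degradation within the destruction complex, and inositol monophosphatase, which recycles inositol for phosphoinositide signalling. It enters cells largely through sodium channels and sodium transporters. Naa15 encodes the auxiliary subunit that anchors the N-terminal acetyltransferase NatA to ribosomes, where many new proteins are acetylated, and heterozygous loss of the human gene is known in neurodevelopmental disorders. The prefrontal cortex contains excitatory projection neurons, inhibitory interneurons, glia and vessels, and bulk RNA mixes them all: fewer cells of a type and less RNA per cell cannot be told apart.

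The lithium libraries differed from the vehicle libraries in their general make-up, and that difference stands beside each result below. Depth was similar, at 28.1 to 31.1 M reads in the lithium libraries and 25.2 to 31.5 M reads in the vehicle libraries. The share of the total taken by mitochondrial genes was 8.15% ± 1.01 (SD, n = 10) with lithium and 5.85% ± 0.75 (SD, n = 9) with vehicle (exact permutation test over libraries, two-sided, p = 8.66e-05, adjusted over 3 measures 8.66e-05). The GC slope, which is the change in a library's log2 level per 10 percentage points of a gene's GC content relative to the average library, ran from -0.255 to -0.067 with lithium and from 0.058 to 0.191 with vehicle (exact permutation test, p = 2.17e-05, the smallest that 10 against 9 libraries allow, adjusted p = 3.25e-05). The length slope, the same per doubling of transcript length, ran from -0.087 to -0.028 and from -0.0014 to 0.078 (exact permutation test, adjusted p = 3.25e-05). Neither slope overlapped between the arms, and all 19 libraries carried the sex-linked transcripts of their labelled sex. The WT lithium libraries (GC slope -0.240 to -0.057) and the HT fluoxetine females (-0.236 to -0.058) lay on the lithium side, whereas the HT fluoxetine males (-0.0025 to 0.149) overlapped the vehicle range. Treatment and this property of the libraries cannot be told apart, so values are given as deposited and, where named so, after a smooth trend on GC content and length was taken out of every library (trend removed).

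**Figure D1:**
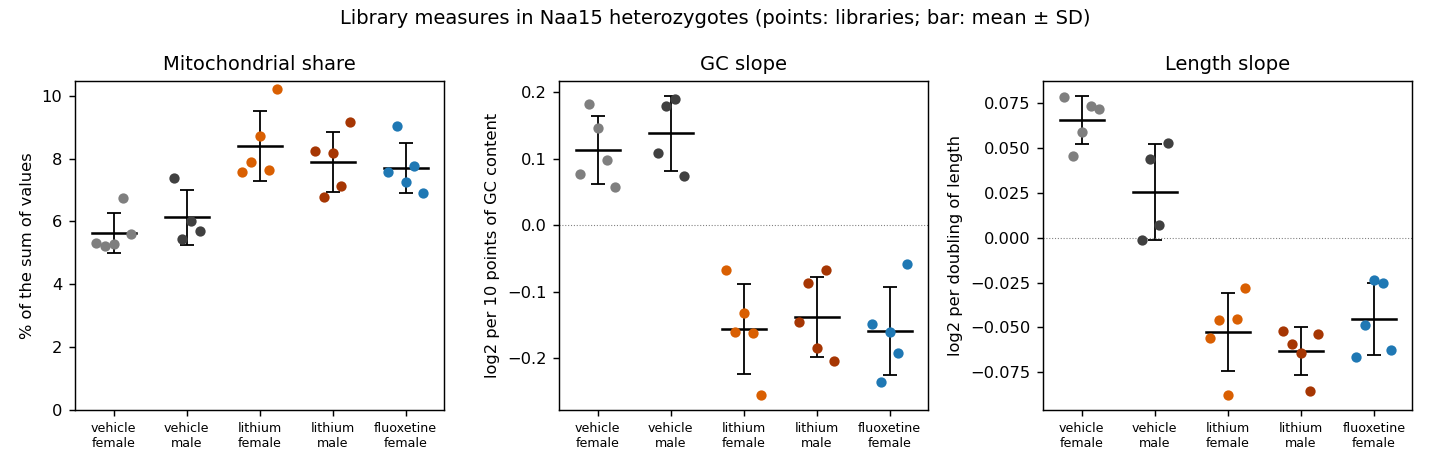
Mitochondrial share (% of the sum of values), GC slope and length slope of the libraries in 5 HT groups; each point is 1 library and bars give mean ± SD. The 10 lithium libraries and the 5 fluoxetine females lie below 0 for both slopes, and the 9 vehicle libraries lie above 0 for the GC slope.

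Lithium was accompanied by small shifts in a large part of the transcriptome. Of 17891 genes tested, 4348 rose (24.3%) and 4259 fell (23.8%) at an adjusted p under 0.05 (limma-trend on log2 of the value plus 1, sex as covariate, Benjamini-Hochberg). The median size among called genes was 0.26 on the log2 scale, 968 changed by at least 0.5, and 122 by at least 1. In 989 genes (5.53%) every lithium library was above every vehicle library, and in 1396 (7.8%) every one was below. Genes that rose had a median GC content of 44.1% and genes that fell one of 54.8%, against 49.4% for all tested genes. Among the 3576 genes with the lowest GC content 54.8% rose and 1.23% fell, while among the 3576 with the highest 4.25% rose and 54.4% fell. After the trend was removed, 1802 genes rose (10.1%) and 2492 fell (13.9%); 1215 rose and 1864 fell in both fits, and 151 were called in opposite directions. With the slopes entered as covariates in place of the removal, limma called 1 gene (2182 at an unadjusted p under 0.05), with standard errors at a median of 0.347 against 0.068. Counts of list members below are read against these shares.

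**Figure D2:**
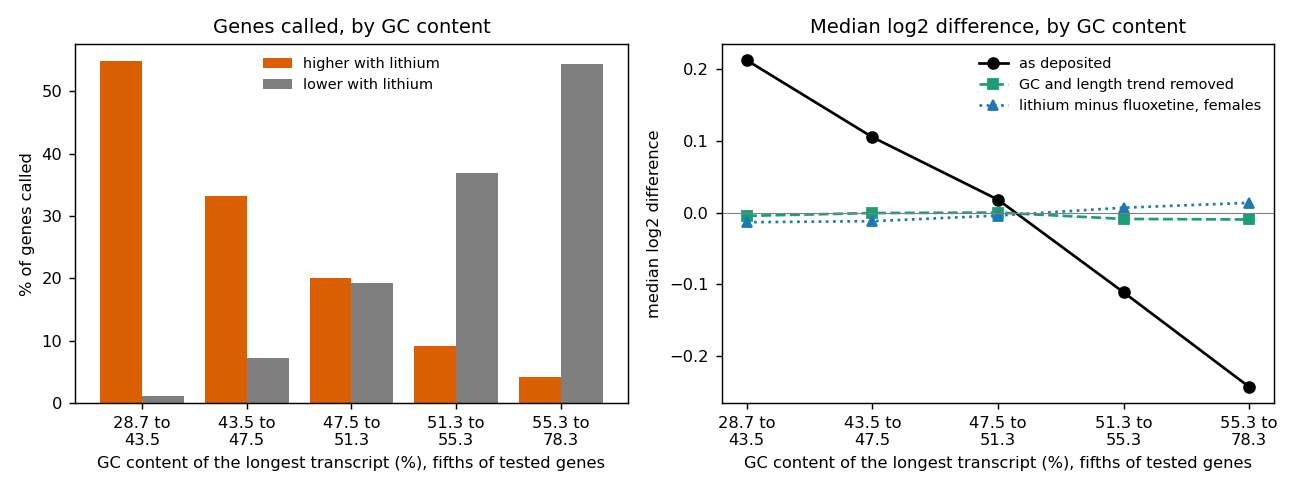
Left, percentage of tested genes called higher (orange) or lower (grey) with lithium in each of 5 equal groups of GC content; right, median log2 difference in each group as deposited, with the trend removed, and for lithium minus fluoxetine in HT females. As deposited, the median falls from 0.21 in the group of lowest GC content to -0.24 in the highest.

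Naa15 itself (GRCm38 chr3:51415148-51476507, plus strand) was slightly higher with lithium. Its normalised read count (reads divided by the library's size factor) was 1510 to 1710 (median 1599) in the vehicle libraries and 1587 to 1896 (median 1710) in the lithium libraries, and the arms overlapped. The log2 difference was 0.12 ± 0.033 (SE; adjusted p = 0.00545, higher in 10 of 10 lithium libraries than the vehicle mean of the same sex). With the trend removed it was 0.010 ± 0.029 (adjusted p = 0.830), so it was called on the deposited scale alone. The WT vehicle libraries held 1476 to 1971, which overlaps the HT vehicle range, so the level of this gene total does not separate the genotypes and the labels are taken as given. Naa50, which encodes a further N-terminal acetyltransferase bound to NatA, was 0.18 ± 0.038 as deposited and -0.065 ± 0.035 with the trend removed. Of the 5 NatA genes measured, 2 rose and 0 fell.

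Among genes at or above the median level, the largest increases were in mitochondrial transcripts and in a few nuclear genes. The mt-Atp6 transcript, which encodes subunit a of ATP synthase, stood at 11620 to 21324 (median 15360) with vehicle and 35291 to 57767 (median 47649) with lithium, a log2 difference of 1.60 ± 0.096 (adjusted p = 1.02e-09) with no overlap between arms. It kept 0.99 ± 0.096 with the trend removed, although its reading frame overlaps that of mt-Atp8 and reads can be shared. The transcripts mt-Nd3 (complex I) and mt-Co2 (cytochrome oxidase) rose by 1.21 ± 0.23 and 0.89 ± 0.23, and the nuclear pseudogene Gm10222 on chromosome 1, which resembles mitochondrial sequence and is uncertain for that reason, by 1.35 ± 0.34. None of these 3 was called with the trend removed (0.36, 0.33 and 0.59). Lars2, the mitochondrial leucyl-tRNA synthetase, stood at 3072 to 10009 (median 6554) and 7514 to 17515 (median 13657) with overlapping arms (1.10 ± 0.22, adjusted p = 0.000302; trend removed 1.17 ± 0.21). Etnppl, an astrocyte enzyme that breaks down phosphoethanolamine, stood at 196 to 455 (median 291) and 447 to 1129 (median 628) (1.004 ± 0.17, adjusted p = 4.77e-05), and its arms overlapped only between the highest vehicle and the lowest lithium library. The fluoxetine females stood at 245 to 408, inside the vehicle range, and the direct difference between the drugs was 0.77 ± 0.16 (adjusted p = 0.125, not called). Ndst4, a heparan sulfate sulfotransferase, and Abi3bp, an extracellular matrix protein, rose by 1.37 ± 0.44 and 1.02 ± 0.35 over wide vehicle ranges of 49.99 to 1684 and 155 to 2722.

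The largest decreases were in activity-regulated genes, in collagen and basement membrane genes, and in 2 uncertain gene models. Arc, Fos, Junb, Sik1, Egr1 and Nr4a1 are described with their group below. Col1a1, the main chain of type I collagen, stood at 566 to 868 (median 752) with vehicle and 268 to 474 (median 355) with lithium (-0.996 ± 0.100, adjusted p = 1.24e-07). Hspg2, which encodes the basement membrane proteoglycan perlecan, stood at 741 to 1049 (median 827) and 385 to 547 (median 457) (-0.91 ± 0.071, adjusted p = 9.41e-09). Neither gene overlapped between arms, and both stayed lower with the trend removed (-0.64 ± 0.10 and -0.49 ± 0.061). A chromosome 17 model named Myl12b that spans the Myl12a and Myl12b genes fell by 0.94 ± 0.058, and Gm47283, annotated on the Y chromosome yet read in both sexes, by 1.23 ± 0.30; reads of both can belong to overlapping or similar genes. Below the median level, the processed pseudogene Gm9762, chosen after its values were seen, was at 0 in all 9 vehicle libraries and at 88.9 to 148 in all 10 lithium libraries. It stood at 106 to 172 in the fluoxetine females and spanned 0 to 178 in the WT lithium and 0 to 55.8 in the WT vehicle libraries. Gm49450, also named after its values were seen, stood at 242 to 1201 in the vehicle libraries and at 0 in 9 of 10 lithium libraries. Pseudogenes made up 2.08% of tested genes, 24.7% of the 97 genes that rose by at least 1 and 36% of the 25 that fell by at least 1, and their reads can be shared with parent genes.

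Genes that encode lithium's direct targets showed small differences. Gsk3b, named outside the rule because lithium acts on its product, stood at 5661 to 7958 (median 6429) with vehicle and 5214 to 6672 (median 6082) with lithium (-0.11 ± 0.054, adjusted p = 0.0940), and beta-catenin itself, Ctnnb1, differed by -0.072 ± 0.030 (adjusted p = 0.0541). Gsk3a fell by 0.22 ± 0.033 as deposited and differed by 0.0087 ± 0.034 with the trend removed. Around them, 9 of 19 genes of the GSK3 and destruction complex list fell and 2 rose, with a median of -0.11 against 0.027 for all tested genes. With the trend removed 3 fell, 2 rose and the median was -0.012. Apc2, a brain form of the APC scaffold, stood at 5643 to 6291 (median 5830) and 3968 to 4496 (median 4254) without overlap (-0.48 ± 0.029, adjusted p = 1.02e-09), but with the trend removed it was -0.046 ± 0.024 and not called. Ppp2r1a, the scaffold of the phosphatase PP2A, fell by 0.38 ± 0.034 and stayed lower with the trend removed (-0.26 ± 0.035, adjusted p = 2.29e-05).

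Many transcriptional targets of the Wnt pathway fell. Of 23 tested, 12 fell and 1 rose (median -0.28), and with the trend removed 7 fell and 0 rose (median -0.13). The list includes feedback inhibitors of the pathway. Axin2, a scaffold of the destruction complex that beta-catenin induces, stood at 773 to 981 (median 906) and 633 to 751 (median 719) (-0.33 ± 0.045, adjusted p = 5.57e-06; trend removed -0.13 ± 0.042). Nkd1, an inhibitor that binds Dishevelled, stood at 599 to 777 (median 737) and 424 to 551 (median 468) (-0.61 ± 0.058, adjusted p = 7.34e-08; trend removed -0.46 ± 0.058). Neither gene overlapped between arms. Lef1, a transcription factor that beta-catenin binds and that is also high in thalamus, stood at 122 to 219 (median 194) and 88.3 to 157 (median 116) (-0.70 ± 0.11; trend removed -0.78 ± 0.11, adjusted p = 5.69e-05). None of the 8 promoter windows found for the genes that fell held the TCF/LEF motif CTTTGAT on either strand, which 4.29% of all genes with a window held.

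In inositol metabolism, genes of 2 phosphatases that lithium inhibits rose slightly, while several kinases and receptors fell. Impa1, inositol monophosphatase, stood at 1612 to 1819 (median 1724) with vehicle and 1829 to 2109 (median 1988) with lithium, and the arms did not overlap (0.20 ± 0.029, adjusted p = 1.08e-05; trend removed 0.097 ± 0.034, adjusted p = 0.0438). Inpp1, inositol polyphosphate 1-phosphatase, another enzyme inhibited by lithium and named outside the rule, rose by 0.10 ± 0.027 as deposited but was -0.020 ± 0.035 with the trend removed. Impa2, the other monophosphatase gene and likewise outside the rule, was not called (0.047 ± 0.079). Itpkb, which phosphorylates inositol trisphosphate, fell by 0.44 ± 0.048 and the receptor Itpr1 by 0.35 ± 0.059, both without overlap and both called with the trend removed (-0.14 and -0.24). The HT fluoxetine females held 1972 to 2046 of Impa1, inside its lithium range. They held 564 to 659 of Itpkb, against 531 to 665 with lithium. Their Inpp1 (852 to 922) and Itpr1 (12280 to 13665) overlapped both arms. Over the list, 21 of 37 fell and 4 rose (median -0.15), and with the trend removed 7 fell and 1 rose (median -0.029).

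Genes of the sodium pump, which sets the sodium gradient, of sodium exchange and of osmolyte transport fell in 11 of 26 members and 1 rose, and with the trend removed 6 and 1. Atp1b2, a beta subunit of the pump found in glia, stood at 10857 to 13129 (median 11971) and 8955 to 10158 (median 9619) (-0.31 ± 0.036, adjusted p = 7.68e-07; trend removed -0.20 ± 0.034). The member that rose was Sgk1, a kinase regulated by glucocorticoids and salt.

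Immediate early genes, which neurons transcribe within minutes of synaptic activity, were the list with the lowest median of the 48 examined (-0.55). Of 35 tested, 25 fell and 2 rose, and with the trend removed 19 fell and 1 rose (median -0.39). Arc, a synaptic protein that drives AMPA receptor removal, stood at 1493 to 8742 (median 5847) with vehicle and 770 to 3407 (median 1397) with lithium (-1.69 ± 0.33, adjusted p = 0.000243). Fos, the AP-1 transcription factor subunit, stood at 352 to 1522 (median 1088) and 273 to 856 (median 425) (-1.17 ± 0.26, adjusted p = 0.000898). In both genes all 10 lithium libraries lay under the vehicle mean of their sex, but the arms overlapped. The overlap came from vehicle female replicates 4 and 5, in which Arc was 1493 and 2090 while the other 7 vehicle libraries held 5106 to 8742.

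In Junb, Egr1, Nr4a1 and Sik1 the same vehicle pair was lowest of the vehicle libraries. Junb, a partner of Fos, stood at 613 to 2537 (median 1799) and 649 to 1238 (median 747) (-0.96 ± 0.23), and vehicle female replicates 4 and 5 held 613 and 784. Egr1, a zinc finger transcription factor, stood at 5547 to 11137 (median 9966) and 3542 to 5697 (median 4380) (-0.93 ± 0.13, adjusted p = 7.10e-06), with only the lowest vehicle library inside the lithium range. Nr4a1, an orphan nuclear receptor, and Sik1, a kinase that restrains CREB coactivators, fell by 0.90 ± 0.20 and 0.94 ± 0.14. Egr3 (-0.48 ± 0.061) and Jun (-0.42 ± 0.056) were the members whose arms did not overlap. With vehicle female replicates 4 and 5 left out, an alternative chosen after seeing the data, 26 members fell, 1 rose and the median was -0.66. In males alone 21 of 35 fell (median -0.60), in females alone 11 (median -0.47). Over all genes 2932 fell (16.4%) and 2393 rose (13.4%) in males alone, and 3189 fell (17.8%) and 2641 rose (14.8%) in females alone, and single-sex counts below are read against these shares. None of the immediate early genes passed the test of a sex difference. Homer1, whose gene yields both an activity-induced short form and constitutive long forms that these gene totals do not separate, rose by 0.31 ± 0.083; with the trend removed it was 0.088 and not called.

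**Figure D3:**
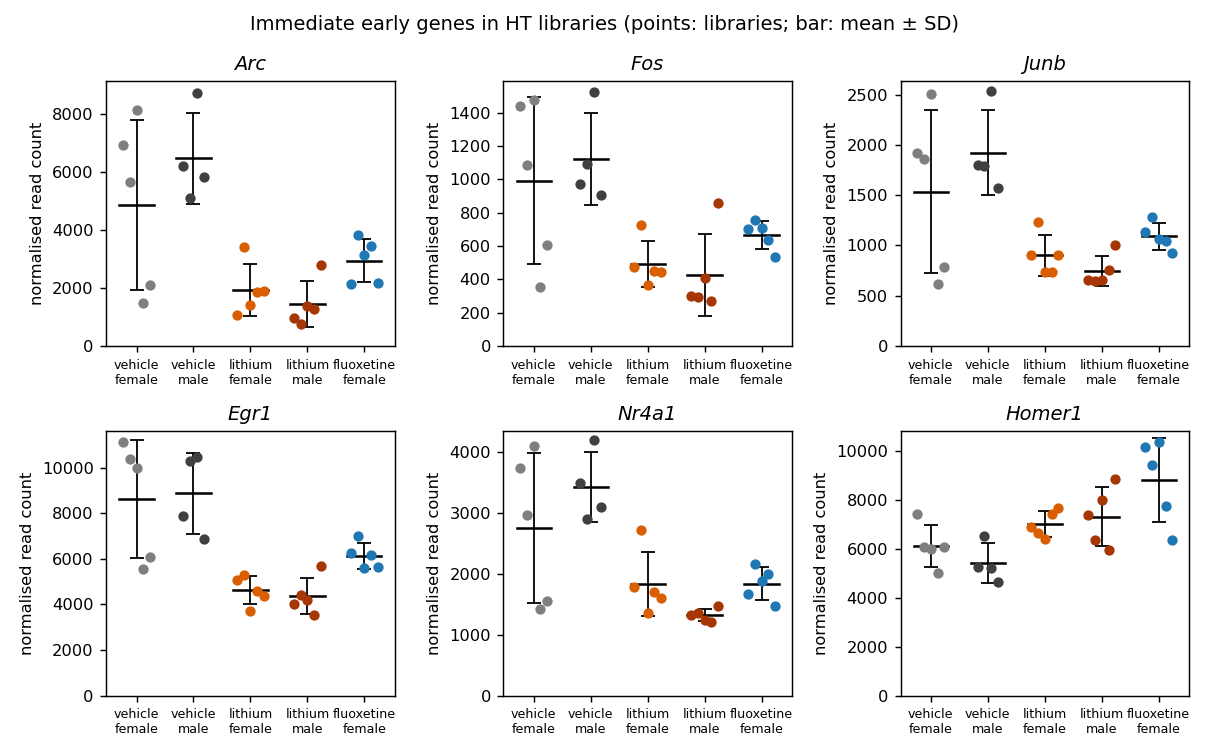
Normalised read counts of 6 immediate early genes in 5 HT groups; points are libraries and bars give mean ± SD, with each axis starting at 0. Vehicle female replicates 4 and 5 sit within or just under the lithium range for Arc, Fos, Junb and Nr4a1, and the fluoxetine females hold 2144 to 3820 of Arc.

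Dusp1, a phosphatase that switches off MAP kinases, was the one called member whose promoter window, from 250 bases before to 50 after the start, held the cyclic AMP response element TGACGTCA. It stood at 389 to 1115 (median 841) and 435 to 935 (median 504) (-0.56 ± 0.19, adjusted p = 0.0191), a difference of -0.17 in females and -0.995 in males, and it is named outside the rule for its promoter. It was not called once the trend was removed (-0.48 ± 0.19, adjusted p = 0.0733). Windows were found for 17 of the 25 members that fell, so 1 of 17 held the element, beside 2.03% of all 27025 genes with a window. The window is shown because this motif is the textbook binding site of CREB, with the match in capitals at position -143 from the start (RefSeq, GRCm38.p6, chr17:26508423-26508722, minus strand).
Dusp1: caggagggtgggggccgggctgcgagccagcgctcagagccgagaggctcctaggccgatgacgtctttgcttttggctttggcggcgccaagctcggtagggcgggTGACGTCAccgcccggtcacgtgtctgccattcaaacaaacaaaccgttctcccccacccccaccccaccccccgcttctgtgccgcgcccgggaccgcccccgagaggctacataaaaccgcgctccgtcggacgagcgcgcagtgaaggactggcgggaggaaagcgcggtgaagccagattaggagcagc

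Neurotrophin genes changed in part. Bdnf, named outside the rule, was not called (0.16 ± 0.075, adjusted p = 0.0887), with 705 to 1054 (median 970) and 917 to 1134 (median 998) in the arms. Vgf, a secreted neuropeptide precursor that BDNF induces, fell by 0.59 ± 0.091 (trend removed -0.27 ± 0.071), and Ntrk3, the receptor of neurotrophin-3, rose by 0.21 ± 0.050 (trend removed 0.13 ± 0.047). Of 11 tested, 4 fell and 1 rose.

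Glucocorticoid response genes were called about as often as all genes as deposited, and individual members rose. Hif3a, named outside the rule, encodes a hypoxia-inducible factor subunit and stood at 110 to 450 (median 189) with vehicle and 310 to 460 (median 388) with lithium (0.97 ± 0.21, adjusted p = 0.000739). Fkbp5, a co-chaperone that lowers receptor sensitivity, stood at 702 to 1136 (median 834) and 949 to 1508 (median 1259) (0.49 ± 0.099, adjusted p = 0.000353). Removing the trend left 1.13 ± 0.21 and 0.58 ± 0.098. In both the arms overlapped: vehicle female replicates 4 and 5, the pair low for immediate early genes, held 450 and 376 of Hif3a while the other 7 vehicle libraries held 110 to 223. Sgk1 stood at 1315 to 1664 (median 1545) and 1686 to 2345 (median 1892) without overlap (0.36 ± 0.058, adjusted p = 2.88e-05), and Sult1a1, a sulfotransferase, at 160 to 331 (median 183) and 297 to 462 (median 374) (0.78 ± 0.13). Per1, which glucocorticoids and neuronal activity both induce, went the other way (-0.71 ± 0.11, adjusted p = 1.56e-05). Vehicle female replicates 4 and 5 held 2430 and 2379 of Per1, inside the lithium range of 1700 to 2583. The other 7 vehicle libraries held 3238 to 4199. In all 6 of 22 members rose and 4 fell, and with the trend removed 8 and 3. In males alone 7 rose and 4 fell, and in females alone 1 and 1, but no member passed the test of a sex difference. The Sgk1 window held the glucocorticoid element (AGAACA, 3 bases, TGTTCT) in capitals at position -189 (RefSeq, GRCm38.p6, chr10:21993640-21993939, plus strand), which 3 of 27025 genes with a window held. The element stood in 1 of 6 windows of the members that rose and 0 of 3 of those that fell.
Sgk1: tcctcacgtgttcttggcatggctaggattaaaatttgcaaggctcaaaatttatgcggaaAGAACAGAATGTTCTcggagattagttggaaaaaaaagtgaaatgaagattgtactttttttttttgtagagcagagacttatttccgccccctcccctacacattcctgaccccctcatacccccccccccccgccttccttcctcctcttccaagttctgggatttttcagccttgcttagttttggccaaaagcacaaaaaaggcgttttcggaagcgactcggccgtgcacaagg

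**Figure D4:**
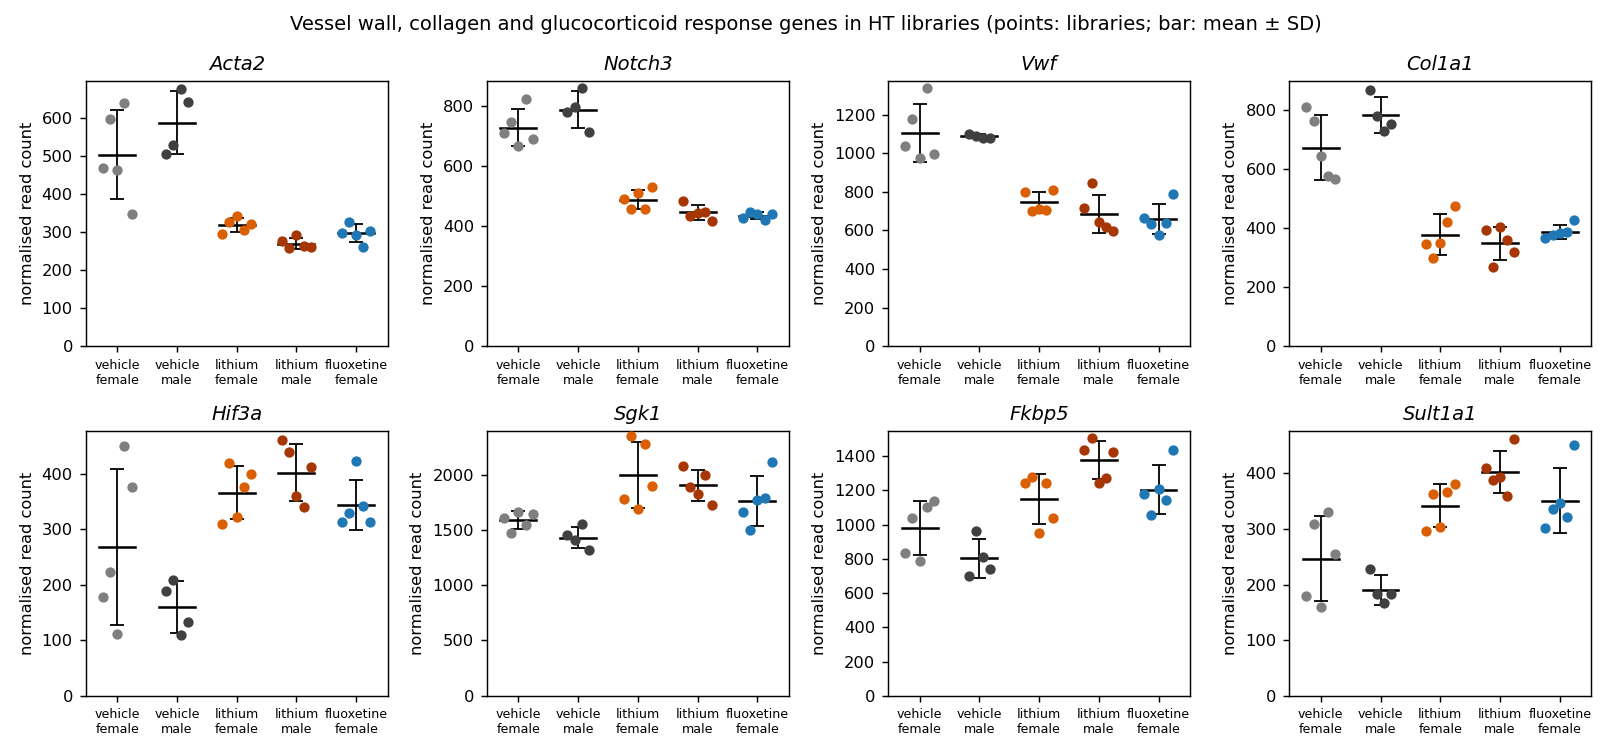
Normalised read counts of 4 vessel wall and matrix genes (top) and 4 glucocorticoid response genes (bottom) in 5 HT groups; points are libraries and bars give mean ± SD, with each axis starting at 0. Acta2, Notch3, Vwf and Col1a1 do not overlap between vehicle and lithium, and the fluoxetine females overlap the lithium range in all 8 genes.

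Most of the measured clock genes fell. The circadian loop pairs the activators CLOCK and BMAL1, which bind E-boxes, with the PER and CRY repressors they induce. Of 19 tested, 11 fell and 2 rose (median -0.24), and with the trend removed 8 fell and 2 rose. Nr1d1, the repressor REV-ERB alpha, stood at 2696 to 3672 (median 3421) and 1814 to 2303 (median 2070) (-0.65 ± 0.061, adjusted p = 5.96e-08; trend removed -0.46 ± 0.059). Ciart, a further repressor of the loop, stood at 394 to 587 (median 462) and 247 to 393 (median 314) (-0.61 ± 0.084; trend removed -0.61 ± 0.084). Neither overlapped between arms. Cry2 and Dbp, an output transcription factor, fell by 0.33 ± 0.035 and 0.42 ± 0.059. The time of day at dissection is not given in the sources used here, and its part in these values was not tested.

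Ciart and Per1 are shown because their windows held the E-box CACGTG, a palindrome that reads alike on both strands. Of 9 windows found for the 11 clock genes that fell, 3 held it (Ciart, Per1 and Bhlhe41), beside 8.09% of all genes with a window. Ciart held 3 matches, starting at positions -116, -58 and -44 (chr3:95882179-95882478, minus strand), and Per1 held 1 at -166 (chr11:69098699-69098998, plus strand). Both sequences are from RefSeq, GRCm38.p6, with the matches in capitals.
Ciart: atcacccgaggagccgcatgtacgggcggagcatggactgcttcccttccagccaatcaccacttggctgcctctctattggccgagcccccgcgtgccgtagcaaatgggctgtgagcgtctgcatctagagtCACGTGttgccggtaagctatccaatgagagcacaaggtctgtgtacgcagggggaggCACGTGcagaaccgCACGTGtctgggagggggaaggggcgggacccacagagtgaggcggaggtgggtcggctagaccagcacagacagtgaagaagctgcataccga
Per1: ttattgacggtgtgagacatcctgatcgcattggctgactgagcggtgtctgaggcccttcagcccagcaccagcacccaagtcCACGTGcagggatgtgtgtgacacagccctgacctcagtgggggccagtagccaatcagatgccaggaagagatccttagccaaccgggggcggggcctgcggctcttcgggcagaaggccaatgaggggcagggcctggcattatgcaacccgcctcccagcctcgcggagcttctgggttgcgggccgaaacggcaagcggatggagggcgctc

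Many cholesterol synthesis genes fell on both scales. Of 25 tested, 12 fell and 4 rose, and with the trend removed 13 fell and 0 rose. Mvd, mevalonate diphosphate decarboxylase, stood at 606 to 727 (median 657) and 382 to 482 (median 417) (-0.63 ± 0.050, adjusted p = 1.04e-08; trend removed -0.44 ± 0.043). The regulators Srebf2, the sterol-sensing transcription factor, and Scap, its escort, fell by 0.40 ± 0.032 and 0.42 ± 0.032 (trend removed -0.084 ± 0.028 and -0.11 ± 0.027). Hmgcs1, which makes HMG-CoA and is named outside the rule for its promoter, fell by 0.30 ± 0.069, and by more with the trend removed (-0.47 ± 0.068). Its window is shown for the sterol element TCACCCCAC, in capitals at position -137, which 1 of 7 windows of the genes that fell and 0.614% of all genes held (RefSeq, GRCm38.p6, chr13:119690101-119690400, plus strand).
Hmgcs1: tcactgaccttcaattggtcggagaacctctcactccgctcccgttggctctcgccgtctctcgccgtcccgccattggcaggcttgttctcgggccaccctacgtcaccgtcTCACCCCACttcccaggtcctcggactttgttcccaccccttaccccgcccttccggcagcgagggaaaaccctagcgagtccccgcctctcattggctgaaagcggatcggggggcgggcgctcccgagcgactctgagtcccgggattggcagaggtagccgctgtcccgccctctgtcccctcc

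The unfolded protein response, which the endoplasmic reticulum starts when proteins misfold, had shares of called members near those of all genes as deposited. Of 27 tested, 7 fell and 5 rose, and with the trend removed 8 and 2. The median was -0.096 in females alone (11 fell, 1 rose) and 0.16 in males alone (3 fell, 7 rose), and no member passed the test of a sex difference. Hyou1, a chaperone of the endoplasmic reticulum, stood at 3064 to 3691 (median 3362) and 2241 to 2745 (median 2598) (-0.41 ± 0.047, adjusted p = 6.12e-07), without overlap. Dnajc3, which restrains the kinase PERK, rose by 0.26 ± 0.055, and Sesn2, a stress-induced regulator of mTORC1, fell by 0.34 ± 0.069 but was -0.064 and not called with the trend removed. Syvn1, the ubiquitin ligase of endoplasmic reticulum-associated degradation, fell by 0.39 ± 0.042 without overlap (trend removed -0.14 ± 0.036). Its window is shown for the ER stress element (CCAAT, 9 bases, CCACG), which starts at position -44 and stood in 3 of 6 windows of the genes that fell, 1 of 5 of those that rose and 0.137% of all genes (RefSeq, GRCm38.p6, chr19:6046326-6046625, plus strand, match in capitals with its spacer).
Syvn1: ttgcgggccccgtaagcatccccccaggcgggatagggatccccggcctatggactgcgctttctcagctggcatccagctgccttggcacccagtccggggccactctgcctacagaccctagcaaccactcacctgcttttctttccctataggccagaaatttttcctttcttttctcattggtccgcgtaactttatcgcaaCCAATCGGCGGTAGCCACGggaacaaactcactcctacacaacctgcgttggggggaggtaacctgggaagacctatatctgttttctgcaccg

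Many cytosolic chaperones fell. Of 18 tested, 10 fell and 3 rose, and with the trend removed 6 fell and 0 rose. Bag3, a co-chaperone of selective autophagy, stood at 166 to 199 (median 173) and 89.9 to 138 (median 109) (-0.68 ± 0.071, adjusted p = 2.02e-07), without overlap. Hsp90ab1, the constitutive HSP90, fell by 0.33 ± 0.045 and stood at -0.34 ± 0.045 with the trend removed. Hspa1a, inducible HSP70, fell by 0.66 ± 0.077, and its near-identical copy Hspa1b can share its reads.

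Most synaptic genes fell as deposited, and fewer with the trend removed. Of 40 postsynaptic scaffold and adhesion genes 25 fell and 3 rose (median -0.28), with 16 lower in every lithium library than in any vehicle library. With the trend removed 13 fell and 0 rose (median -0.059). Of 40 vesicle release genes 27 fell and 2 rose, then 13 and 0 with the trend removed. Rims1, an organiser of the active zone, changed little in size with the removal: it stood at 9564 to 11101 (median 10356) and 6762 to 8283 (median 7387) (-0.47 ± 0.040, adjusted p = 2.52e-08; trend removed -0.43 ± 0.043). Lrrc4b, a postsynaptic adhesion protein, stood at 4817 to 5854 (median 5110) and 3223 to 3922 (median 3562) (-0.55 ± 0.044; trend removed -0.25 ± 0.027). Nrxn2, a presynaptic adhesion molecule with a GC content of 62.4%, fell by 0.48 ± 0.038 and was -0.058 ± 0.031 with the trend removed, which was not called. Syn1 (synapsin) and Dnm1 (dynamin, which cuts vesicles free) fell by 0.40 ± 0.036 and 0.43 ± 0.047 and stayed lower with the trend removed at -0.15 and -0.14.

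Receptor families gave different directions. All called NMDA receptor genes fell (6 of 7), among them Grin1, the obligatory subunit, at 16884 to 19976 (median 17697) and 12221 to 14888 (median 13676) (-0.41 ± 0.045), and Grin2d (-0.57 ± 0.065); with the trend removed 3 fell and these 2 were not called (-0.086 and -0.14). AMPA receptor genes went both ways (2 rose and 7 fell of 19), with Gria2, the subunit that blocks calcium, higher at 16835 to 20533 (median 19163) and 20852 to 25972 (median 22950) (0.27 ± 0.038; trend removed 0.080 ± 0.035, not called), and the auxiliary protein Shisa7 lower (-0.37 ± 0.041; trend removed -0.064). GABA-A receptor subunits, at a median GC content of 42.1%, rose in 5 of 12 and fell in 1, Gabra4 by 0.28 ± 0.064, and with the trend removed 0 were called. Metabotropic receptors fell in 4 of 7 and rose in 0, and Grm3, a presynaptic and glial receptor, stayed lower with the trend removed (-0.26, then -0.34 ± 0.066). Of 24 monoamine receptors 7 fell and 1 rose, with Htr1b, a serotonin receptor, at -0.28 ± 0.075 (trend removed -0.34 ± 0.077) and Adrb1, the beta-1 adrenoceptor, at -0.39 ± 0.063 (trend removed -0.14).

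Ion channel and second messenger genes fell more often as deposited than with the trend removed. Of 71 potassium channel genes 26 fell and 6 rose, against 4 and 7 with the trend removed. Kcnab2, an auxiliary subunit, showed no overlap at 9930 to 11212 (median 10494) and 7769 to 8731 (median 8366) (-0.33 ± 0.031), yet -0.053 ± 0.028 with the trend removed. Of 23 sodium and calcium channel genes 12 fell and 4 rose, against 2 and 3 with the trend removed. Of 26 cyclic AMP genes 14 fell and 3 rose, against 6 and 0 with the trend removed. Crtc1, a coactivator of CREB, stood at 5861 to 6574 (median 5977) and 4291 to 4861 (median 4662) (-0.41 ± 0.031), and Adcy3, an adenylyl cyclase, fell by 0.37 ± 0.045; with the trend removed neither was called (-0.078 and -0.070).

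Most transcripts of the respiratory chain and of ribosomes rose as deposited. Of 36 nuclear complex I genes 23 rose and 6 fell (median 0.26), and of 41 genes of complexes III to V 30 rose and 4 fell. These transcripts are short, with median lengths of 1026 and 927 bases against 3175 for all tested genes. With the trend removed complex I held 12 increases and 11 decreases, and complexes III to V 13 and 9. Atp5mpl, a small subunit of ATP synthase, stood at 955 to 1124 (median 1028) and 1386 to 1608 (median 1487) (0.54 ± 0.034, adjusted p = 1.02e-09; trend removed 0.36 ± 0.039). Ndufb11 of complex I rose by 0.34 ± 0.026 and kept 0.21 ± 0.026. Ndufa4 rose by 0.41 ± 0.030 but was 0.026 ± 0.044 and not called with the trend removed, and Cox7c, a cytochrome oxidase subunit with a GC content of 38.4%, turned from 0.37 ± 0.030 to -0.19 ± 0.038, called in both directions.

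Most messenger RNAs of the mitochondrial genome rose as deposited. Of 12 messenger RNAs 10 rose (median 0.45) and with the trend removed 1 rose and 2 fell (median -0.041). The mt-Nd1 messenger RNA of complex I stood at 131670 to 184800 (median 140880) and 168950 to 280770 (median 196950) (0.46 ± 0.086), and at -0.032 ± 0.065 with the trend removed. The mt-Atp8 gene, which encodes another ATP synthase subunit, turned from 0.57 ± 0.095 to -0.48 ± 0.090. The gene that stayed higher was mt-Atp6, whose reading frame overlaps that of mt-Atp8. Reads can be shared between them, so their opposite values with the trend removed are uncertain.

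Cytosolic ribosomal protein genes rose in 53 of 81 and fell in 8, and with the trend removed in 30 and 14. Rpl22l1, a paralog of Rpl22, stood at 401 to 469 (median 423) and 639 to 726 (median 672) (0.65 ± 0.038, adjusted p = 1.02e-09; trend removed 0.41 ± 0.038), with a wide gap between the arms. Rpl39 rose by 0.54 ± 0.042 (trend removed 0.19 ± 0.033); ribosomal protein genes have many processed copies that can share reads. Mitochondrial ribosomal protein genes rose in 49 of 78 and fell in 8, then in 17 and 6; Mrpl50 went from 0.29 ± 0.026 to 0.025 ± 0.028.

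**Figure D5:**
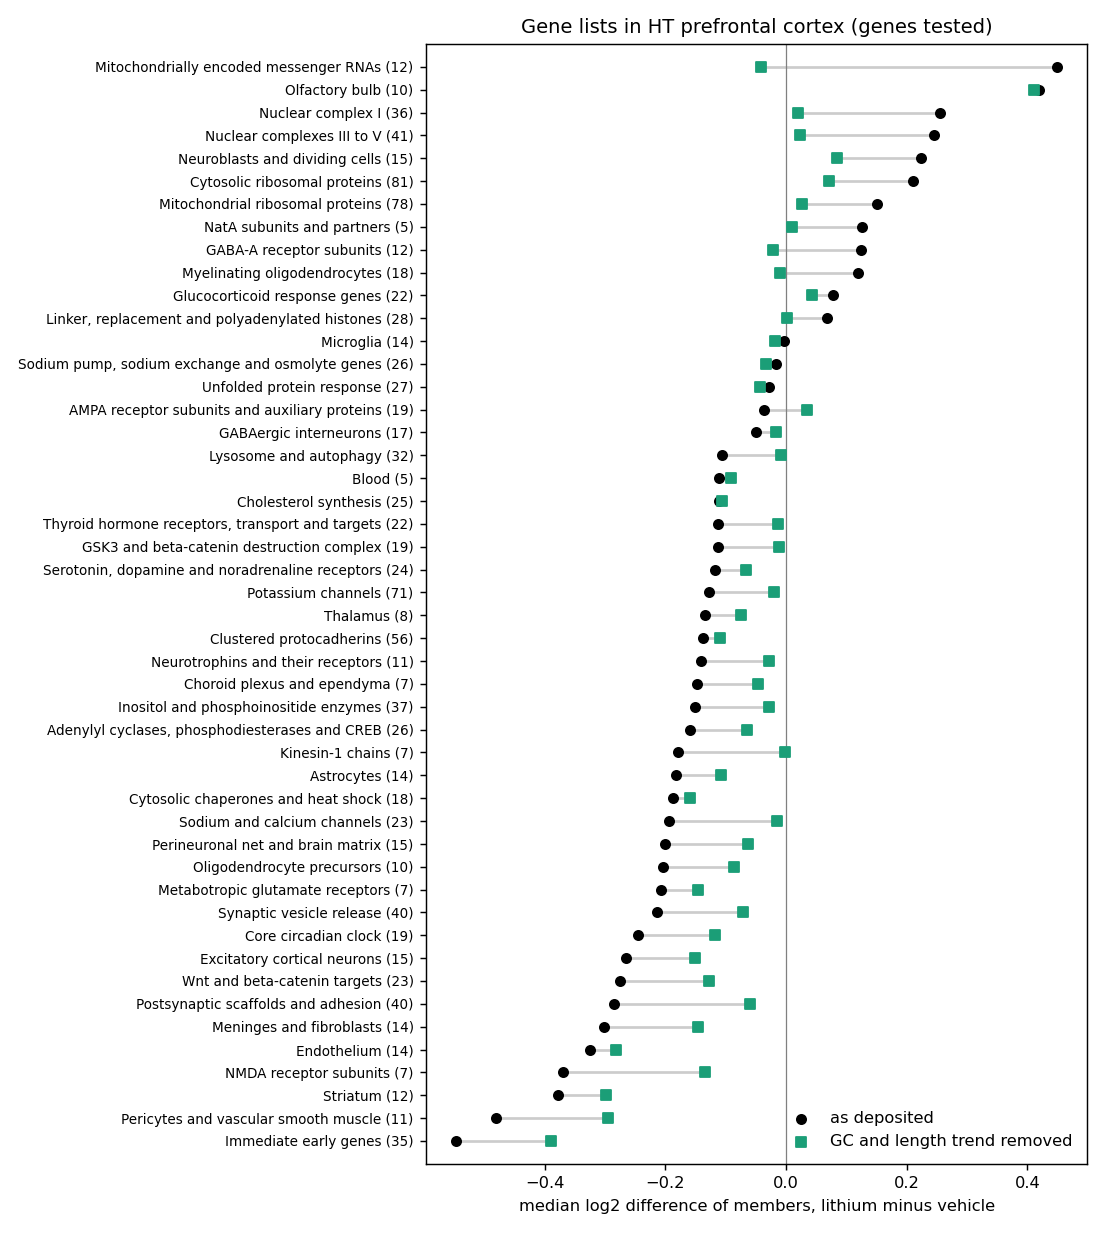
Median log2 difference (lithium minus vehicle) of the tested members of each of 48 gene lists, as deposited (black circles) and after removal of the GC and length trend (green squares); the number of genes tested is in brackets. With the trend removed the immediate early, striatum, vessel wall and endothelium lists have the lowest medians (-0.39, -0.30, -0.30 and -0.28), while the respiratory chain, ribosomal and synaptic lists move towards 0.

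Smaller families gave these values. Lysosome and autophagy genes fell in 15 of 32 and rose in 8 (trend removed 7 and 4). Progranulin, Grn, a lysosomal regulator, stood at 1914 to 2114 (median 1974) and 1370 to 1530 (median 1486) without overlap (-0.43 ± 0.029, adjusted p = 1.85e-09; trend removed -0.28 ± 0.031), and Gabarapl2, of the autophagosome membrane, rose by 0.20 ± 0.025 but was -0.011 ± 0.029 with the trend removed. Among 28 histone genes 8 rose and 3 fell, and with the trend removed 2 rose and 4 fell. The replacement histone H3f3a rose by 0.38 ± 0.050 and the linker histone H1fx fell by 0.61 ± 0.077, both called with the trend removed (0.18 and -0.39). Clustered protocadherins, whose alpha and gamma members share constant exons so that reads may be split among them, fell in 21 of 56 and rose in 2 (14 and 0 with the trend removed), Pcdhgc5 at -0.44. Kinesin-1 genes, which carry cargo along axons, fell in 4 of 7 and rose in 1 (Kif5b, named after its value was seen), with Klc2 at -0.33 and Kif5a at -0.18, and with the trend removed 0 of 7 were called. Thyroid hormone genes fell in 10 of 22 and rose in 1, and with the trend removed in 0 and 2. Thyroid genes were examined because lithium is known to impair thyroid hormone release.

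Most genes of the vessel wall fell on either scale. Of 11 pericyte and smooth muscle genes 8 fell and 0 rose, and with the trend removed 8 and 0. Their summed level was 8099 to 10886 in the vehicle and 6237 to 10198 in the lithium libraries. Acta2, smooth muscle actin, stood at 347 to 677 (median 529) and 259 to 343 (median 293) (-0.86 ± 0.10, adjusted p = 1.07e-06; trend removed -0.93 ± 0.098). Notch3, the receptor of mural cells, stood at 668 to 862 (median 747) and 418 to 531 (median 457) (-0.69 ± 0.054, adjusted p = 9.41e-09; trend removed -0.30 ± 0.053). Neither overlapped, and Myh11, smooth muscle myosin, fell by 0.85 ± 0.10 with 1 vehicle library inside the lithium range.

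The endothelial list fell in 9 of 14 and rose in 2, and with the trend removed in 9 and 1. Vwf, von Willebrand factor, stood at 976 to 1338 (median 1082) and 599 to 847 (median 711) (-0.61 ± 0.066), and Cdh5, the endothelial cadherin, at 569 to 753 (median 702) and 393 to 631 (median 439) (-0.56 ± 0.074). Ly6c1, another endothelial marker, rose by 0.43 ± 0.071 (trend removed 0.20 ± 0.072), so the list did not move as one. In males alone 9 endothelial genes fell (median -0.50) and in females alone 3 (median -0.19), and 0 members passed the test of a sex difference. Meningeal and fibroblast genes fell in 7 of 14 (trend removed 5, with 1 higher), Col3a1 at -0.81, and their summed level overlapped at 21026 to 38344 with vehicle and 22271 to 37307 with lithium. Nes, found in progenitors and in vessel cells, fell by 0.80 ± 0.11. It was listed with the neuroblast and dividing-cell genes, of which 4 of 15 rose and 2 fell (median 0.22). The part of vessel or meningeal content in the matrix genes above was not tested.

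Some matrix and glial genes fell, in part only as deposited. Ncan, the proteoglycan neurocan, stood at 11061 to 12320 (median 11725) and 7965 to 8941 (median 8282) (-0.48 ± 0.029, adjusted p = 1.02e-09; trend removed -0.20 ± 0.023), without overlap. Bcan, brevican, and Tnc, tenascin C, fell by 0.44 ± 0.057 and 0.89 ± 0.16 (Bcan with the trend removed -0.14 ± 0.054, adjusted p = 0.0625, not called), and 6 of 15 perineuronal net genes fell with 0 rising (trend removed 3 and 0). Astrocyte markers fell in 7 of 14 and rose in 2 (trend removed 6 and 0), Aldh1l1 at -0.41 and Aldoc at -0.26. Oligodendrocyte precursor markers fell in 4 of 10, Cspg4 at -0.50, and in 0 with the trend removed. Myelin markers were called in 1 higher (Aspa) and 3 lower of 18, a smaller share than the 48.1% of all genes. Their median was 0.12 (-0.15 in females alone and 0.33 in males alone), with 10 members above 0 and 8 below. The summed level of these markers varied widely, at 56546 to 231010 with vehicle and 105800 to 176370 with lithium. Among those called lower, transferrin, Trf, fell by 0.47 ± 0.16. With the trend removed 0 myelin markers were called (Trf -0.43 ± 0.16, adjusted p = 0.0580), and with vehicle female replicates 4 and 5 left out Trf was -0.41 and not called. Of 14 microglial markers 4 rose and 3 fell, near the shares of all genes, and with the trend removed 0 rose and 3 fell, with Csf1r, the receptor of colony stimulating factor, at -0.45 ± 0.053 (trend removed -0.24) and Aif1 at 0.36 ± 0.077 (trend removed 0.19, not called).

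Excitatory cortical markers fell in 8 of 15 and rose in 0 (trend removed 4 and 0), with the layer transcription factors Cux1 at -0.27 ± 0.043 and Rorb at -0.32 ± 0.063 (trend removed -0.42 ± 0.068). Their summed level as deposited, in which abundant genes weigh most, was 205180 to 258150 with vehicle and 163650 to 203610 with lithium, without overlap. Of the 15 members, 1 was itself lower in every lithium library than in any vehicle library. Markers of the labelled tissue were present in every library. Interneuron markers rose in 4 and fell in 4 of 17, near the shares of all genes, and with the trend removed in 2 and 2. Pvalb, the calcium-binding protein of fast-spiking interneurons, stood at 335 to 534 (median 459) and 549 to 973 (median 713) without overlap (0.67 ± 0.093, adjusted p = 5.74e-06; trend removed 0.47 ± 0.091), while Slc32a1, the vesicular GABA transporter of all inhibitory neurons, fell by 0.57 ± 0.11 (trend removed -0.28 ± 0.10, adjusted p = 0.0501). Of the members that the rule names besides these, Vip rose and the potassium channel gene Kcnc1 fell as deposited.

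Markers of regions beside the prefrontal cortex differed widely among libraries of the same arm. The summed striatal markers were 9685 to 31541 with vehicle, the highest in vehicle male replicate 3, and 8385 to 12321 with lithium; 3 of 12 fell and 1 rose (trend removed 3 and 0), Rasd2 at -0.73. Olfactory bulb markers spanned 1251 to 7892 and 1757 to 15028, with medians of -0.68 in females and 1.32 in males and 1 of 10 called, Slc17a6 (0.35 ± 0.10), which also marks thalamus. Thalamic markers were called in 1 higher and 2 lower of 8 (trend removed 0 and 1). Choroid plexus and ependymal markers summed to 145 to 556 over the 19 libraries, with Foxj1 at -0.41 ± 0.14 (-0.37 and not called with vehicle female replicates 4 and 5 left out), and Ttr at 0 in at least 1 library. Of 5 blood genes Hbb-bs rose by 0.31 ± 0.10. Of 15 neuroblast and dividing-cell genes 4 rose and 2 fell, and with the trend removed 2 and 3. Slc17a6, Foxj1 and Hbb-bs were not called with the trend removed (0.20, -0.14 and 0.053).

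Females and males were then compared in their response to lithium. No gene passed the test (0 of 17891, 0%) in limma, with 1075 at an unadjusted p under 0.05; edgeR called 0 and DESeq2 4. DESeq2's 4 were Rflnb and Pcdh12, and Gm18537 and Gm49450, chosen after their values were seen, which were at 0 in 6 and 9 of the 19 libraries. Rflnb, a filamin partner, differed by 0.15 ± 0.088 in females and -0.48 ± 0.072 in males, a difference (female minus male) of 0.63 ± 0.12 (limma adjusted p = 0.605). Pcdh12, an endothelial protocadherin, differed by -0.47 ± 0.20 and -1.92 ± 0.22 (1.45 ± 0.30, adjusted p = 0.823); its vehicle libraries held 38.1 to 108 and its lithium libraries 15.5 to 44.5. Catspere2 (0.80 ± 0.17) and Castor2 (-0.36 ± 0.084), of the arginine sensor family of the mTORC1 pathway, ranked next among the smallest p. For the leading genes above, Arc differed between the sexes by 1.14 ± 0.62, Fos by 0.65 ± 0.51, Acta2 by 0.49 ± 0.18 and Fkbp5 by -0.55 ± 0.16 (none called).

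The lithium response of HT mice was also set against that of WT mice, which uses 4 separate sets of libraries. No gene passed the test (0 of 17891, 0%) in limma, with 778 at an unadjusted p under 0.05; edgeR called 0 and DESeq2 1, the pseudogene Gm6565, named after its values were seen, at 0 in 16 of the 19 HT and 18 of the 20 WT libraries. Of the 4348 genes that rose in HT, 4266 were higher with lithium in WT as well, with medians of 0.24 in HT and 0.23 in WT. Of the 4259 that fell, 4221 were lower in WT, with medians of -0.29 and -0.26. Across the 17891 genes Pearson's r between the responses was 0.772, a description only, since genes are not independent and the lithium libraries of both genotypes share the GC and length profile. Naa15 differed by 0.12 in HT and 0.12 in WT. Arc differed by -1.72 and -1.95, Nr1d1 by -0.65 and -0.68, Acta2 by -0.87 and -0.77, and Pvalb by 0.68 and 0.88.

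The genes ranked first for a genotype difference showed small differences. Sertad2, a transcriptional coregulator, was -0.041 in HT and -0.24 in WT, a difference (HT minus WT) of 0.20 ± 0.052 (adjusted p = 0.945). Ramp1, a subunit of the CGRP receptor, was 0.068 and 0.32 (-0.25 ± 0.068), and Rpl10a 0.33 and 0.58 (-0.26 ± 0.072). Syne2, a nuclear envelope protein, was -0.093 and -0.33 (0.24 ± 0.070). The standard error of a genotype difference had a median of 0.098 on the log2 scale. Ndst4 and Abi3bp, 2 of the largest increases in HT, were 0.25 and -0.17 in WT, with differences of 1.12 ± 0.97 and 1.192 ± 0.76 that did not pass (adjusted p = 0.945 and 0.945).

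Lithium and fluoxetine were compared directly in HT females (5 libraries each), whose libraries lie on the same side of the GC and length profile. No gene passed in limma (0 of 17891, 0%), with 2085 at an unadjusted p under 0.05 and a lowest adjusted p of 0.087; edgeR called 0 and DESeq2 69 higher and 107 lower with lithium. After removal of the trend limma called 2 higher and 8 lower. The vehicle comparison and this one share the lithium females, so values are set side by side only. Acta2 stood at 259 to 343 with lithium in both sexes and 261 to 326 in the fluoxetine females, Nr1d1 at 1814 to 2303 and 2057 to 2445, and mt-Atp6 at 35291 to 57767 and 33933 to 54469. In all 3 genes the fluoxetine females overlapped the lithium range. They also did in Apc2 (4152 to 4478), Nkd1 (440 to 486), Rpl22l1 (674 to 759) and Mvd (395 to 446). The same held for Ncan (7994 to 8360) and Pvalb (630 to 770). Rims1 (8565 to 9187) lay between the arms, and Etnppl lay inside the vehicle range. These genes were chosen after their values were seen, and the other named genes were not counted.

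Genes with the smallest p between the drugs included Per2, Tnfrsf25 and Xbp1. Per2, a repressor of the clock, differed by -0.55 ± 0.082 (lithium minus fluoxetine, adjusted p = 0.0869, not called; 1375 to 1626 in the fluoxetine females), and was called with the trend removed. Tnfrsf25, a death receptor family member, differed by -1.06 ± 0.17 and stood at 173 to 265 with fluoxetine against 58.8 to 132 in the 10 lithium and 68.6 to 281 in the 9 vehicle libraries. Xbp1, a transcription factor of the unfolded protein response, differed by -0.31 ± 0.050, the kinase Sik2 by -0.44 ± 0.073 and Arid4a, a chromatin protein, by -0.29 ± 0.048, each with an adjusted p of 0.0869. Of 27 unfolded protein response genes 23 had a lower mean with lithium (median -0.14 against -0.0013 for all genes) and DESeq2 called 9 of them lower, including the chaperone genes Hspa5, Hsp90b1, Pdia4 and Manf (named for that call, outside the rule), while limma called 0. Of 18 cytosolic chaperones 17 were lower in mean (median -0.19) and DESeq2 called 5 lower. Over all 17891 genes DESeq2 called 107 lower in this comparison. The share of all genes with a lower mean was not counted. Of 35 immediate early genes 31 were lower in mean (median -0.18), with Arc at -0.68 ± 0.26 and Egr1 at -0.42 ± 0.090, neither called in limma. DESeq2 called 2 members lower, Egr1 and Ier5 (Ier5 named for that call, outside the rule).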

How the data were processed

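The deposited table holds 18088 genes in 59 libraries of polyadenylated, strand-marked RNA. Its signal values were made by the authors from Salmon 0.11.2 estimates on GRCm38 with DESeq2 1.19.11 in R 3.6.0, per the submitters' processing notes; each column, as deposited, is whole reads divided by 1 size factor per library (0.827 to 1.129). Of the non-zero values of up to 1000 reads, 100% were whole reads within 0.01 read, and larger values were not checked in this way. GENCODE M21 supplied names, GC content and length for 18077 of the 18088 identifiers.

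Genes with a value of at least 10 in at least 4 libraries were kept (17891). log2(value + 1) was fitted with limma 3.58.1 (trend on intensity, sex as covariate; R 4.3.3), and p-values were adjusted by Benjamini-Hochberg over all tested genes, with a threshold of 0.05; fold changes are on that log2 scale, which understates low genes. The trend on GC content and log2 length was a natural spline with 5 degrees of freedom per library, fitted against the mean of all libraries. edgeR 4.0.16 (4348 higher, 4258 lower) and DESeq2 1.42.0 (4153 higher, 4393 lower) were run on the recovered reads as alternatives. Library measures were compared by exact permutation with scipy 1.17.1 (Python 3.11.15); plots used matplotlib 3.10.9, and the fits were tested on simulated data. Depth was 25.2 to 31.5 M reads per library. No 2 libraries of a group agreed within counting noise (lowest chi-square per degree of freedom 6.54). Libraries with the same replicate number did not deviate together (mean r 0.0193 over 27 pairs, -0.125 to 0.288), so the numbers do not pair them.

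Genes were named by rule: Naa15; the 10 called genes that rose most and the 10 that fell most, of those not below the median level; up to 4 members of each list by smallest p; and up to 10 genes by smallest p in each further comparison. For length, lower ranks were omitted, and a few genes that the rule names are not reported here. The members, lists and motifs were chosen with earlier results of these data known. Motifs were not counted in list members that were not called. The motif shares therefore do not set the genes that fell or rose apart from the rest of their list. Leaving out vehicle female replicates 4 and 5 was chosen after seeing the data.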

Additional observations from a re-analysis of the deposited data

Results flagged for a closer look

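In 484 groups of 4 or 5 libraries (each named gene and library measure in each arm and sex), the highest or lowest library stood far from the others in 34, where chance flags about 1 in 20. None was given an explanation, and the causes were not tested.

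Among the vehicle males, replicate 3 was high for Sik1 (828.8), Hspg2 (1049), Cspg4 (874), Foxj1 (169.8) and Rasd2 (3522) and low for Inpp1 (769). Replicate 2 was high for Grin1 (19872), Kcnab2 (11024) and Grn (2037) and low for Dusp1 (661). Replicate 4 was low for Gm10222 (2464), Nkd1 (744) and Aldoc (20330), and replicate 1 was high for Cdh5 (753).

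Among the vehicle females, replicate 4 was high for Gm47283 (6918), mt-Nd1 (164570) and the mitochondrial share (6.74%) and low for Ndufa4 (3527). Replicate 3 was low for Ntrk3 (5443.5) and replicate 1 high for Hmgcs1 (16357).

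Among the lithium females, replicate 5 was high for mt-Nd3 (7392), Abi3bp (4822) and Cux1 (2461) and low for mt-Co2 (48146). Replicate 2 was low for Tnc (111) and high for Dusp1 (935), and replicate 4 was high for Hmgcs1 (11435). Among the lithium males, replicate 5 was high for Etnppl (1129), Gm47283 (2744) and Fos (856) and low for Gabra4 (3522). Replicate 1 was low for Inpp1 (824) and Ciart (247), and replicate 4 was high for Cox7c (3725).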

How the results depend on the processing

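Library make-up and treatment cannot be told apart here, and the effect of depth was not tested. The 4348 increases and 4259 decreases became 1802 and 2492 after removal of the GC and length trend, and 1 and 0 with both slopes as covariates, where the median SE rose to 0.347; the slopes do not overlap between the arms, so that fit compares them only by extrapolation. In females alone there were 2641 increases and 3189 decreases, and in males alone 2393 and 2932, with fewer libraries. Leaving out 1 library at a time gave 4058 to 4322 increases, 4020 to 4246 decreases, 0 to 0 sex and genotype differences, 0 to 3 lithium-fluoxetine differences, a GC slope difference of -0.280 to -0.259, a length slope difference of -0.112 to -0.102 and a mitochondrial share difference of 2.07 to 2.49 percentage points. Without lithium female replicate 1 the 3 genes called against fluoxetine were Cbfa2t3, Banp and Sik2, and without replicate 4 it was Pfkfb3. DESeq2 called 4 sex differences, 1 genotype difference and 176 lithium-fluoxetine differences. For the last, 59 libraries with 12 group means gave 10, the removed trend 10 and the slopes 6; the cause was not tested.

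With replicate number as a block, which does not pair the libraries, 4311 genes rose and 4262 fell, and the other 3 comparisons held 0 calls. With vehicle female replicates 4 and 5 left out, 4329 rose and 4216 fell, and of 118 named genes Trf (-0.41, adjusted p = 0.0669) and Foxj1 (-0.37, adjusted p = 0.0571) were no longer called by limma.

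Of the 118 named genes, 8 changed sign with the trend removed: Gsk3a 0.0087, Inpp1 -0.020, Gabarapl2 -0.011, Cox7c -0.19, mt-Atp8 -0.48, mt-Nd1 -0.032, Kif5a 0.044 and Naa50 -0.065. Cox7c and mt-Atp8 were called in that direction. A further 29 kept their direction without a call. With the slopes as covariates 80 lost their call and 34 changed sign, none of them called. These were 0.045 for Ppp2r1a, 0.021 for Gsk3a, 0.23 for Jun, 0.20 for Itpr1, 0.79 for Vgf, 0.075 for Per1, 0.10 for Hyou1, 0.16 for Sesn2, 0.67 for Hspa1a, 0.26 for Hsp90ab1, 0.16 for Cry2, 0.064 for Nrxn2, 0.054 for Lrrc4b, 0.10 for Syn1, 0.27 for Dnm1, 0.24 for Grin1, 0.14 for Shisa7, 0.10 for Kcnab2, 0.19 for Adcy3, 0.26 for Pcdhgc5, 0.27 for Klc2, 0.22 for Slc32a1, 0.071 for Trf and 0.22 for Syvn1. Those that turned negative were -1.62 for mt-Nd3, -0.68 for mt-Co2, -0.11 for Ntrk3, -0.0061 for Gabra4, -0.59 for mt-Atp8, -0.83 for mt-Nd1, -0.12 for Naa50, -0.41 for Aif1, -0.36 for Ly6c1 and -0.10 for Hbb-bs. Under the other settings (other added constants, filters, scalings, variance priors, no sex covariate, edgeR, DESeq2, a residual principal component) no call among the named genes was lost, though Foxj1 was not tested at a mean of at least 100 and the uncalled Ctnnb1 turned to 0.0023 under quantile normalisation; with 59 libraries and 12 group means 4 did, and with females or males alone 21 and 15 did.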
